A study of Mus musculus with 2 samples.

Results

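Matrix metalloproteinases (MMPs) and their tissue inhibitors (TIMPs) were followed through the immune cells of MC38 tumors, in 9 genes: *Mmp8*, *Mmp9*, *Mmp12*, *Mmp13*, *Mmp14*, *Mmp19*, *Timp1*, *Timp2* and *Timp3*. They are 9 of the 26 gene columns named Mmp or Timp, out of 27031 gene columns in all. The 9 genes were selected on measured values, since their levels in these cells and the ratio of *Mmp9* between the groups were already known. Their levels and ratios are therefore given as a description, with no test. MC38 is a mouse colorectal cancer line, grown here under the skin of female C57BL/6 mice aged 6 to 8 weeks. Mice received vehicle (control) or telmisartan, an angiotensin receptor blocker, at 5 mg/kg by daily gavage from the time of implantation until day 13. Live CD45+ cells were sorted by FACS from tumors of 5 mice per group, so that each group is 1 pool, and cells without CD45 lay outside the gate. The pools carried Sample Tag 1 (control) and Sample Tag 2 (telmisartan) and shared 1 BD Rhapsody capture, in which unique molecular identifiers (UMIs) count transcript molecules.

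MMPs are zinc-dependent proteases that cut collagens, elastin and other proteins of the extracellular matrix, and most are secreted as inactive proenzymes. TIMPs bind the active site and block it, and *Timp2* in addition takes part in activating a gelatinase at the cell surface together with *Mmp14*. In tumors, macrophages and neutrophils are known sources of both families.

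Of 8738 control and 10222 telmisartan cells with a tag, 5078 and 4833 lay within the limits on genes and mitochondrial UMIs. These limits thus left out 3660 control and 5389 telmisartan cells, an unequal loss. After doublet removal, the control pool kept 4535 cells and 41591125 UMIs, and the telmisartan pool 4434 cells and 30921742 UMIs. The median cell held 8689 UMIs in the control pool and 6357.5 in the telmisartan pool. Cells were clustered with all Mmp and Timp genes left out and fell into macrophage-like cells (4051 control, 3995 telmisartan, monocytes included), dendritic-like cells (364 and 301), T-like cells (72 and 114) and neutrophil-like cells (48 and 24). Macrophage-like is the name of all clusters that met no other class. Their 11 listed macrophage markers summed to 18482 CPM in the control and 18793 CPM in the telmisartan pool, against 3716 and 3348 CPM in dendritic-like, 6111 and 4053 CPM in T-like and 4410 and 2327 CPM in neutrophil-like cells. Levels are UMIs per 1000000 UMIs summed over a class and pool (CPM). Intervals are exact 95% intervals, Poisson for CPM, Clopper-Pearson for shares of cells and conditional binomial for log2 ratios, which are telmisartan over control. They cover counting error only. With 1 pool per group there is no replicate, and differences between mice, pools and treatments cannot be told apart.

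Macrophage-like cells divided into 8 subclusters, referred to by number. Their leading genes were *Cxcl3* and *Ereg* in subcluster 1, *Cxcl9* and *Serpina3g* in 2, *Apoe* and *Folr2* in 3, *Ly6c2* and *Plac8* in 4, *Hmox1* and *Serpinb2* in 5, *Top2a* and *Mki67* in 6, *Mcm6* and *Ung* in 7, and *Ifit3* and *Rsad2* in 8. Subcluster 2 held most control macrophages of any (1249 cells) and subcluster 1 most telmisartan macrophages (1124 cells), so values of the whole class mix different subclusters in the 2 pools. *Timp2* itself was among the leading genes of subcluster 3, although it took no part in the clustering.

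Of the 9 genes, 8 reached 100 UMIs in macrophage-like cells of both pools together, and *Timp3* did not. In the telmisartan pool, 2 of the 8 were at least 1.5-fold lower (*Mmp9* and *Timp1*), 1 was at least 1.5-fold higher (*Mmp13*) and 5 were neither. Among all 11074 genes with 100 UMIs, 2.23% were at least 1.5-fold lower and 4.76% at least 1.5-fold higher. Nothing is read from that comparison, since these ratios were in view when the genes were picked. The median log2 ratio was -0.07 over the 8 genes and -0.05 over all genes. Nearest to the 1.5-fold line (a log2 ratio of 0.58) were *Timp1*, just past it at -0.65, and *Mmp19*, just short of it at 0.55.

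The calls for *Timp1* and *Mmp13* were lost in some alternatives, and the cause was not tested. With every subcluster given the same weight in both pools, a comparison chosen after the values were seen, the log2 ratio was -0.41 for *Timp1* and 0.36 for *Mmp13*, and neither passed 1.5-fold. *Mmp13* also stayed under 1.5-fold as a mean of UMIs per 10000 of each cell, at 0.54, and in cells thinned to 1000 UMIs, at 0.44. *Mmp19* passed 1.5-fold without the 1% of cells with most of its UMIs, at 0.64, and relative to the median ratio of all genes, at 0.60.

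**Figure D1:**
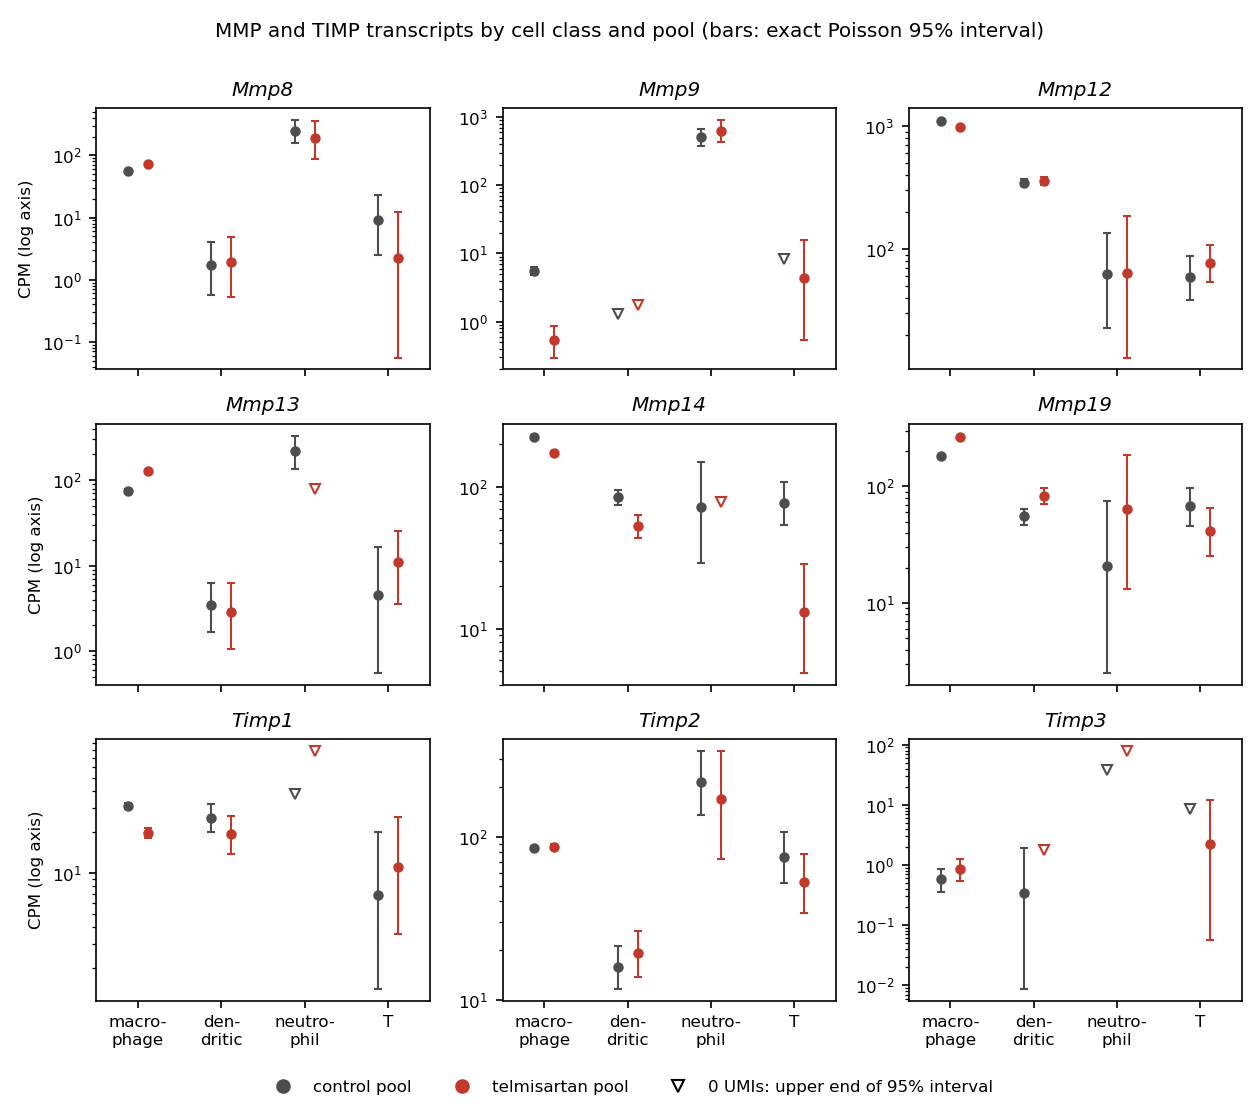
Level of each gene in CPM (log axis) in the 4 cell classes, control pool in grey and telmisartan pool in red, with exact Poisson 95% intervals as bars and open triangles at the upper end of the interval where a class held 0 UMIs. *Mmp9* sits highest in neutrophil-like cells, at 507 and 635 CPM, and *Mmp12* in macrophage-like cells, at 1111 and 984 CPM.

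*Mmp8* encodes a collagenase long known from neutrophil granules, and *Mmp13* is the main collagenase of interstitial collagens in rodents. In macrophage-like cells, *Mmp8* stood at 56.6 CPM (54.3 to 59.1) in the control pool and 72.9 CPM (69.8 to 76.1) in the telmisartan pool, a log2 ratio of 0.36 (0.28 to 0.45). In neutrophil-like cells it stood at 248 CPM (159 to 370) and 190 CPM (87.1 to 361), from 24 UMIs in 13 cells and 9 UMIs in 3 cells, and these intervals overlap. Dendritic-like cells held 5 and 4 *Mmp8* UMIs, and T-like cells 4 and 1. By level, the order of classes was thus neutrophil-like, then macrophage-like, then dendritic-like and T-like cells, whose intervals overlap. With cells thinned to 1000 UMIs, *Mmp8* was found in 20.8% of control neutrophil-like (10.5 to 35.0) and 4.57% of control macrophage-like cells (3.94 to 5.26). In the telmisartan pool these shares, 8.33% (1.03 to 27.0) and 5.25% (4.57 to 5.99), overlapped.

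The ratio of *Mmp8* differed in sign among macrophage subclusters. It was -0.43 (-0.59 to -0.28) in subcluster 1, where *Mmp8* stood at 89.7 and 66.5 CPM, and 0.64 (0.44 to 0.84) in subcluster 3, where it stood at 52.3 and 81.5 CPM. Subcluster 6, led by genes of mitosis, had a ratio of 0.72 (0.42 to 1.03). In 5 of the 8 subclusters the interval held 0, and with subclusters weighted alike the ratio of the class was 0.01. Without scaling for depth it was -0.05. The highest *Mmp8* level was in subcluster 5, at 292 and 286 CPM. That subcluster, with *Hmox1* and *Serpinb2* in front, held 22.7% of the macrophage *Mmp8* UMIs in 9.91% of the cells, and its median depth was 0.459 of that of the kept cells.

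*Mmp13* stood at 75.2 CPM (72.5 to 78.0) in control and 128 CPM (124 to 132) in telmisartan macrophage-like cells, a log2 ratio of 0.77 (0.69 to 0.84). The UMIs were concentrated: 538 of 4051 control cells and 573 of 3995 telmisartan cells held any, and the 1% of cells with most held 41.1% and 39.7% of them. Subcluster 5 had the highest level, 446 CPM in the control and 491 CPM in the telmisartan pool, and there the ratio of 0.14 had an interval that held 0 (-0.01 to 0.29). The ratio was 0.82 (0.70 to 0.94) in subcluster 3 and 0.80 (0.41 to 1.20) in subcluster 8, led by *Ifit3*, and -0.55 (-0.90 to -0.22) in subcluster 2. Outside macrophages *Mmp13* was scarce, with 10 and 6 UMIs in dendritic-like and 2 and 5 in T-like cells. All 21 UMIs in control neutrophil-like cells came from 1 cell, so the 217 CPM of that class describes a single cell.

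*Mmp13* was detected in a larger share of the cells with *Mmp8* than of those without it. After thinning every macrophage-like cell to 1000 UMIs, *Mmp13* was detected in 27 of 183 control cells with *Mmp8* (14.8%, 9.95 to 20.7) and in 161 of 3823 without it (4.21%, 3.60 to 4.90). In the telmisartan pool it was detected in 35 of 206 cells with *Mmp8* (17.0%, 12.1 to 22.8) and in 5.73% of the others (5.0 to 6.52). *Mmp12* was detected in 69.7% of control and 68.5% of telmisartan cells with *Mmp13*, and in 31.3% and 26.8% of those without. The pairs were chosen after the subcluster levels had been seen. *Timp2* was detected in 6.04% of control cells with *Mmp14* and 6.23% of those without, and in 6.46% and 5.69% in the telmisartan pool.

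*Mmp8*, *Mmp12* and *Mmp13* also lie close to each other in the genome. On chromosome 9 of GRCm38, 10 Mmp genes occupy 427072 bases from 7272514 to 7699585, 9 of them analysed here. *Mmp13* (7272514 to 7283331), *Mmp12* (7344381 to 7369499) and *Mmp8* (7558456 to 7568485) are all on the plus strand. Of their neighbors, *Mmp27*, beside *Mmp8*, had 48 and 74 UMIs in macrophage-like cells, and *Mmp10* had 15 and 43, of which 6 and 37 were in subcluster 3. *Mmp3*, *Mmp7*, *Mmp20* and *Mmp1b* each had at most 12 UMIs in either pool. The last 1261 bases of *Mmp12* overlap *Mmp1b* on the opposite strand, and *Mmp1b* had 4 UMIs in all kept cells.

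**Figure D2:**
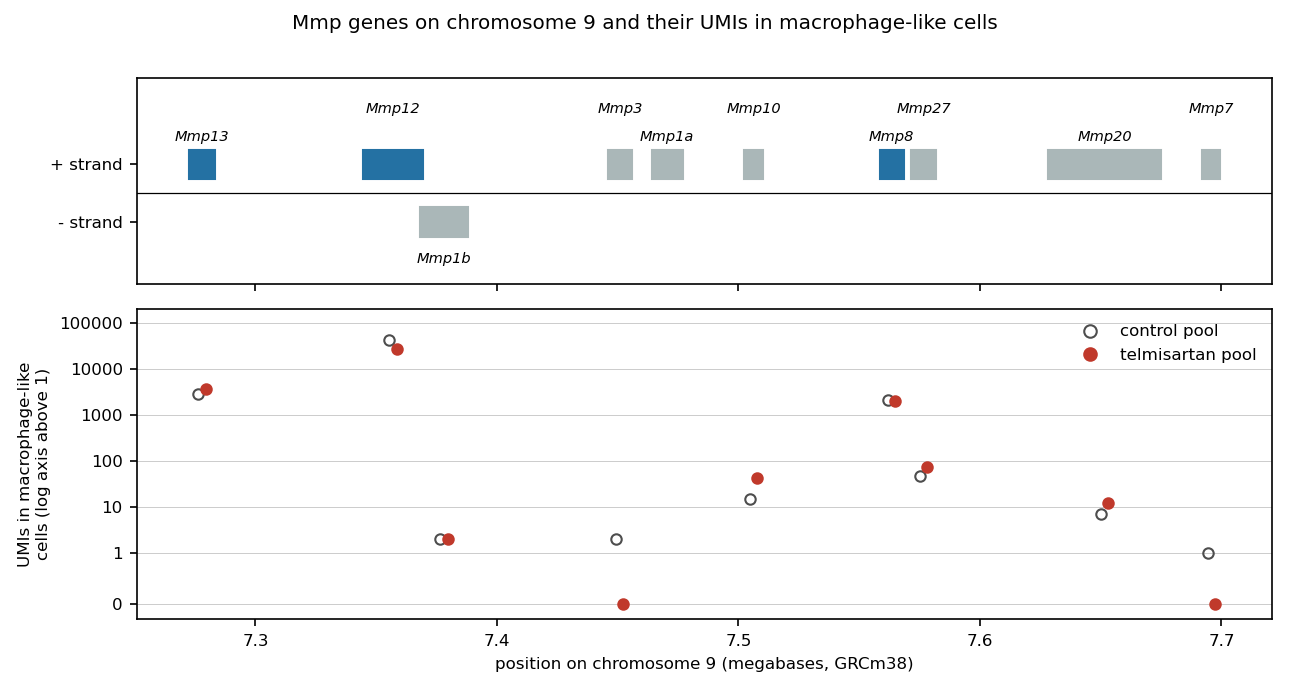
Mmp genes on chromosome 9 of GRCm38 by strand (upper panel, the 3 described genes in blue) and their summed UMIs in macrophage-like cells of the control pool (open grey) and telmisartan pool (red), on an axis that is logarithmic above 1. *Mmp13*, *Mmp12* and *Mmp8* hold nearly all UMIs of the cluster, and *Mmp1a*, drawn without values, was not analysed here.

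Because *Mmp8*, *Mmp12* and *Mmp13* shared subcluster 5 as their highest, the bases before their transcription starts were compared. RefSeq promoters on GRCm38 were matched by symbol for 7 of the 9 genes, all but *Mmp9* and *Mmp19*, and the 250 bases before each start were searched on both strands for the AP-1 motif TGANTCA and the TATA motif TATAAA. The AP-1 letters occur in 2217 of 32851 promoters of this length (6.75%) and the TATA letters in 4063 (12.4%). *Mmp13*, at chr9:7272264-7272513 on the plus strand, holds both, the AP-1 letters beginning 35 and the TATA letters 16 bases before its start. *Mmp8*, at chr9:7558179-7558428 on the plus strand, holds neither. *Mmp12*, also highest in subcluster 5, has 2 entries, and the one at chr9:7347124-7347373 holds the AP-1 letters, beginning 44 bases before its start, while the other holds neither motif. The remaining 4 genes hold neither. Those of *Mmp13* and *Mmp8* are printed 5′ to 3′, with the matches in capitals, and a match describes letters and not a bound site.
Mmp13: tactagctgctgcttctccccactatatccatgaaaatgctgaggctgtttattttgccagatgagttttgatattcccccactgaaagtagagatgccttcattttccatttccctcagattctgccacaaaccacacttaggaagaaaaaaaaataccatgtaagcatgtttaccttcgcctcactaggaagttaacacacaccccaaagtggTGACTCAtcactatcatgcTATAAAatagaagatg
Mmp8: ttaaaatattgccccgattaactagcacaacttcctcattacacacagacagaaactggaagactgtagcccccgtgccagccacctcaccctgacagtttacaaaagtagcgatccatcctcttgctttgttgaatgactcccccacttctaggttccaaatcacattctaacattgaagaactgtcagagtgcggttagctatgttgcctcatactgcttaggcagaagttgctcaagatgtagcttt

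*Mmp9* encodes a gelatinase that cuts denatured collagen and basement membrane collagen, stored in neutrophil granules and made by osteoclasts and some macrophages. Neutrophil-like cells had 507 CPM (375 to 671) in the control and 635 CPM (428 to 906) in the telmisartan pool, from 49 and 30 UMIs. The log2 ratio there was 0.32 (-0.38 to 1.01), and 23 of 48 and 10 of 24 cells held a UMI (47.9% and 41.7%). A single telmisartan cell held 13 of the 30 UMIs, while the highest control cell held 5, and no direction is read from that ratio. Macrophage-like cells had 5.48 CPM (4.76 to 6.27) in the control and 0.529 CPM (0.296 to 0.873) in the telmisartan pool, from 209 and 15 UMIs. That log2 ratio, -3.37 (-4.23 to -2.62), ranked 1 from the lowest among the 11074 genes. Nothing is read from the rank, since the ratio was known when the genes were picked. *Mmp9* also reached the minimum of 100 UMIs through the control pool alone.

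The macrophage ratio of *Mmp9* rested on very few cells. A UMI was found in 39 of 4051 control macrophages (0.963%, 0.685 to 1.31) and in 13 of 3995 telmisartan macrophages (0.325%, 0.173 to 0.556). In the control pool 5 cells, with 58, 36, 34, 16 and 11 UMIs, held 155 of the 209 UMIs, while the highest telmisartan cell held 3. The interval of the ratio treats UMIs as independent and is too narrow for molecules shared out this way. Without cells of 10 or more *Mmp9* UMIs, a limit on the measured gene itself that was set after the values were seen, 54 control and 15 telmisartan UMIs remained, and the log2 ratio was -1.42 (-2.35 to -0.57). Thinned to 1000 UMIs, 12 of 4006 control cells (0.30%) and 1 of 3924 telmisartan cells (0.0255%) held a UMI, the last too few to read a level from.

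**Figure D3:**
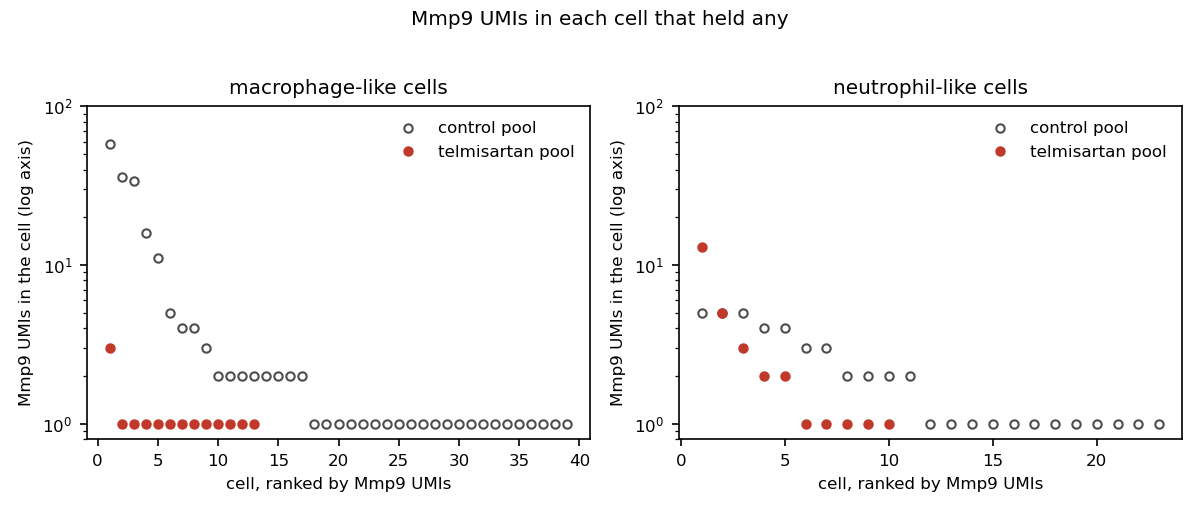
*Mmp9* UMIs (log axis) in each macrophage-like cell (left) and neutrophil-like cell (right) that held any, ranked from the highest, control pool in open grey and telmisartan pool in red. In macrophage-like cells 5 control cells lie between 11 and 58 UMIs and no telmisartan cell exceeds 3, whereas in neutrophil-like cells the highest cell, with 13 UMIs, is from the telmisartan pool.

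Summed together, the control macrophages rich in *Mmp9* differed from the others in several genes, named here after their values were seen. In the 17 control macrophages with 2 or more *Mmp9* UMIs, *Ctsk*, a collagen-cutting cathepsin typical of osteoclasts, stood at 961 CPM against 3.57 CPM in the 4012 cells without *Mmp9*. *Acp5*, the tartrate-resistant acid phosphatase, stood at 477 against 13.8 CPM. *Serpinb2* stood at 242 against 9.71 CPM, *Ptges* at 175 against 10.8 CPM and *F3* at 262 against 22.0 CPM. *Atp6v0d2*, a proton pump subunit, stood at 161 against 10.4 CPM, *Cxcl3* at 3231 against 452 CPM and *Mmp13* at 443 against 73.7 CPM. *Flrt2* stood at 148 against 14.0 CPM and *Fbxo32* at 134 against 13.8 CPM. Of the 17 cells, *Cxcl3* was found in 12, *Mmp13* in 7, *Ctsk* in 5, *Acp5* in 4 and *Atp6v0d2* in 3. *Ptges* and *Flrt2* were each found in 6, *Fbxo32* in 5, *F3* in 4 and *Serpinb2* in 3. The 17 cells held 143 UMIs of *Ctsk* and 71 of *Acp5*. The cell with 58 *Mmp9* UMIs held 119 of *Ctsk*, 40 of *Acp5*, 10 of *Csf1r* and 1 of *Lyz2*, and the cell with 16 held 16, 29, 12 and 4. The levels of *Ctsk* and *Acp5* thus rest mostly on these 2 cells. The cell with 34 *Mmp9* UMIs instead held 374 *Lyz2* and 2 *Ctsk* UMIs, so the 5 cells were not of 1 kind.

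Markers of neutrophils were also counted in these cells. Among the 17 cells, *S100a8* stood at 67.2 CPM (32.2 to 124), from 10 UMIs in 4 cells, against 8.01 CPM (7.14 to 8.97) in the cells without *Mmp9*. *Csf3r* had 3 UMIs, *Hdc* had 1, and *S100a9*, *Cxcr2* and *Retnlg* had 0. Of the 5 richest cells, 4 held no neutrophil marker of the 6 listed, and the cell with 36 *Mmp9* UMIs held 3. Over all macrophage-like cells the 6 neutrophil markers, all detected, summed to 28.0 CPM in the control and 38.2 CPM in the telmisartan pool, with *Csf3r* the most abundant, a log2 ratio of 0.45 (0.32 to 0.57). Of the 1070 control and 1082 telmisartan UMIs in that sum, *Csf3r* gave 536 and 543, *Hdc* 113 and 210, and *S100a8* 314 and 237. *S100a9* gave 53 and 52, *Cxcr2* 45 and 39, and *Retnlg* 9 and 1. The ratio of the sum thus mostly describes *Csf3r* and *Hdc* and does not hold for each marker. The part of neutrophil RNA in the *Mmp9* ratio was not tested. *Ctsk* itself had 280 UMIs in 82 control cells and 149 UMIs in 96 telmisartan cells, a log2 ratio of -0.48 (-0.78 to -0.19), and 51.8% of its control UMIs lay in cells with *Mmp9*. In the cells without *Mmp9* it had 135 and 145 UMIs and the ratio was 0.52 (0.18 to 0.87). *Acp5* had a ratio of 0.13 (-0.05 to 0.30), and of 0.31 (0.13 to 0.49) in the cells without *Mmp9*. The split acts on *Mmp9*, whose own level differed between the pools. It took out 145 control *Ctsk* UMIs, 119 of them in 1 cell, and 4 telmisartan ones, so no direction is read from the ratios without *Mmp9*. Erythroid markers, 4 of 4 detected with *Hba-a1* the most abundant, also stood lower in the telmisartan pool, at 4.17 and 0.812 CPM. So did epithelial or tumor markers, at 1.23 and 0.706 CPM, a log2 ratio of -0.80 (-1.64 to -0.02). *Epcam*, also 4-fold above the other cells in dendritic-like clusters 7 and 10, gave 39 of their 47 control and 16 of their 20 telmisartan UMIs. That ratio thus mostly describes *Epcam*. T markers, with a ratio of 0.24 (0.04 to 0.43), and B markers, with 0.43 (0.05 to 0.81), stood higher. The part of these markers' cell types in the result was not tested. No *Mmp9* UMI was found in 364 control or 301 telmisartan dendritic-like cells, which allows levels of up to 1.28 and 1.77 CPM at the upper end of the interval.

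*Mmp12*, the macrophage elastase, was a macrophage transcript in both pools. It stood at 1111 CPM (1100 to 1121) in control and 984 CPM (973 to 996) in telmisartan macrophage-like cells, a log2 ratio of -0.17 (-0.20 to -0.15). The 1001 control and 696 telmisartan cells of 10 or more *Mmp12* UMIs held 37946 of 42387 and 23574 of 27901 UMIs. In the cells left the ratio was 0.23 (0.17 to 0.29), but a limit on the gene's own UMIs took more cells from the deeper pool, and no direction is read from it. Dendritic-like cells had 347 CPM (326 to 369) and 356 CPM (331 to 383), with a ratio of 0.04 (-0.10 to 0.18). T-like cells had 59.4 CPM (38.8 to 87.0) and 77.1 CPM (53.7 to 107), and neutrophil-like cells 62.1 and 63.5 CPM, from 6 and 3 UMIs. The order of levels was macrophage-like, then dendritic-like, then T-like and neutrophil-like cells, which overlapped.

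The small *Mmp12* ratio of the class joined ratios of both signs. In subcluster 1 the level was 2199 CPM in the control and 937 CPM in the telmisartan pool, a log2 ratio of -1.23 (-1.27 to -1.19). In subcluster 3 it was 1036 and 1541 CPM, a ratio of 0.57 (0.53 to 0.62). Across the 8 subclusters 4 intervals lay below 0, 3 lay above 0 and 1 held 0. Subcluster 5 had the highest level in both pools, 2763 CPM in the control and 2172 CPM in the telmisartan pool. With the subclusters weighted alike the class ratio was -0.44. The difference between subclusters was not tested.

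**Figure D4:**
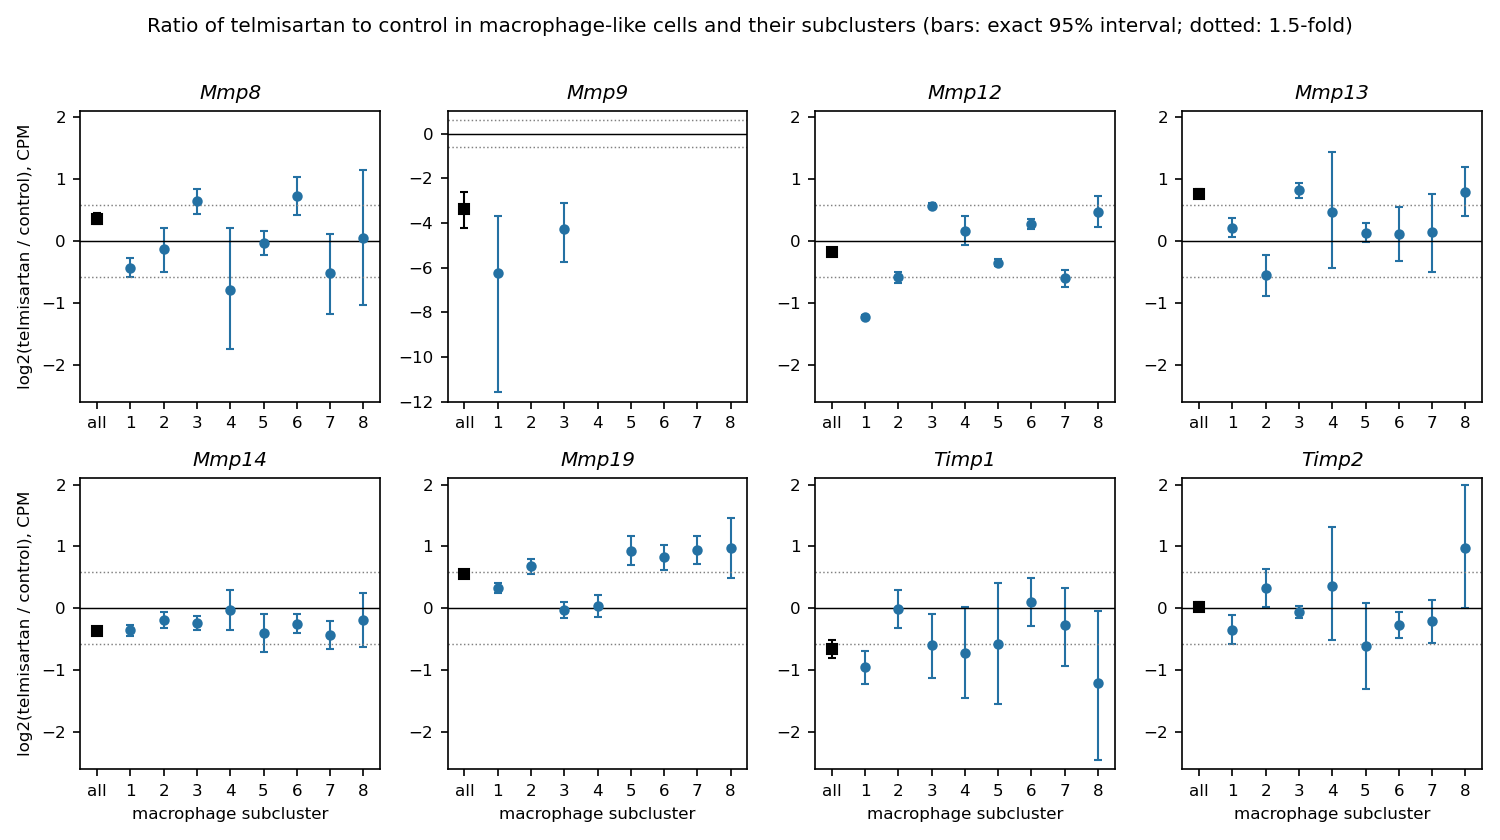
Log2 ratio of telmisartan over control CPM in all macrophage-like cells (black squares) and in subclusters 1 to 8 (blue), with exact conditional binomial 95% intervals as bars and dotted lines at 1.5-fold, for subclusters with at least 20 UMIs in both pools together and at least 1 UMI in each. *Mmp14* lies below 0 in all 8 subclusters, whereas *Mmp12* runs from -1.23 in subcluster 1 to 0.57 in subcluster 3, and the *Mmp9* panel has its own axis.

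*Mmp14* is a membrane-bound MMP that cuts collagen at the cell surface and activates other MMPs. It stood at 226 CPM (221 to 231) in control and 175 CPM (170 to 180) in telmisartan macrophage-like cells, a log2 ratio of -0.37 (-0.42 to -0.32). The ratio was below 0 in all 8 subclusters, from -0.43 in subcluster 7 to -0.03 in subcluster 4, and 6 of the intervals lay wholly below 0. Dendritic-like cells had 84.4 CPM (74.2 to 95.7) and 52.9 CPM (43.5 to 63.8), a ratio of -0.67 (-1.01 to -0.34). T-like cells had 77.7 CPM (53.8 to 109) and 13.2 CPM (4.85 to 28.8), from 34 UMIs in 13 cells and 6 UMIs in 6 cells, so that in the control pool dendritic-like and T-like levels overlapped.

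*Mmp19* is a secreted MMP that cuts basement membrane proteins. It stood at 182 CPM (177 to 186) in control and 266 CPM (260 to 273) in telmisartan macrophage-like cells, a log2 ratio of 0.55 (0.51 to 0.60). Of the 8 subclusters 6 had intervals wholly above 0, with the highest ratio, 0.97 (0.50 to 1.47), in subcluster 8. The exceptions were subcluster 3, at -0.03 (-0.16 to 0.10), and subcluster 4, at 0.03 (-0.14 to 0.21). Subcluster 4, led by *Ly6c2* and *Plac8*, had the highest level, 441 and 451 CPM, and its median depth was 0.333 of that of the kept cells. Dendritic-like cells had 55.4 CPM (47.1 to 64.6) and 82.7 CPM (70.8 to 96.0), a ratio of 0.58 (0.26 to 0.90). T-like cells had 68.5 and 41.8 CPM, which in the control pool overlapped the dendritic-like level. *Mmp19* overlaps *Gm47093*, an antisense gene with 118 UMIs, and *Tmem198b*, with 1128 UMIs. Whether the counting used strand is not given in the sources used here, so reads of these genes may not be separable from those of *Mmp19*.

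Of the inhibitors, *Timp1* encodes a secreted inhibitor of most MMPs, *Timp2* an inhibitor that also joins *Mmp14* at the cell surface, and *Timp3* an inhibitor held in the matrix. *Timp1* stood at 30.9 CPM (29.2 to 32.8) in control and 19.7 CPM (18.1 to 21.4) in telmisartan macrophage-like cells, a log2 ratio of -0.65 (-0.80 to -0.51). The ratio was -0.96 (-1.22 to -0.70) in subcluster 1, -0.60 (-1.12 to -0.08) in subcluster 3 and -1.20 (-2.45 to -0.05) in subcluster 8, and the other 5 intervals held 0. In subcluster 2 the level was 40.1 CPM in control and 39.9 CPM in telmisartan cells. Dendritic-like cells had 25.3 CPM (19.8 to 31.8) and 19.2 CPM (13.7 to 26.2), and neutrophil-like cells held no *Timp1* UMI. *Timp1* lies inside *Syn1* on the opposite strand, a gene with 730 UMIs in the kept cells. With the use of strand not given, reads of *Syn1* may not be separable from those of *Timp1*.

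*Timp2* did not differ between the pools beyond counting error over all macrophage-like cells, at 85.0 CPM (82.1 to 87.9) and 86.7 CPM (83.3 to 90.2), with a log2 ratio of 0.03 (-0.05 to 0.10). The ratio was below 0 in 8 of 18 alternative settings, down to -0.38 without scaling for depth. Subcluster 3, led by *Apoe* and *Folr2*, held 56.9% of its macrophage UMIs in 17.9% of the cells, at 259 and 248 CPM. Neutrophil-like cells had 217 CPM (135 to 332) and 169 CPM (73.1 to 333), from 21 and 8 UMIs. T-like cells had 75.4 CPM (51.9 to 106) and 52.8 CPM (33.9 to 78.6), and in the control pool this interval holds the macrophage level. *Timp3* had 22 and 24 UMIs, at 0.576 CPM (0.361 to 0.873) and 0.847 CPM (0.543 to 1.26), and a difference was not detectable at this depth. *Timp2* shares 10141 bases with *Cep295nl* on the same strand (32 UMIs), and *Timp3* lies inside *Syn3* (131 UMIs).

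Shares of cells with a UMI depend on depth, and the control macrophages were deeper (median 8977 UMIs against 6463). Unthinned, *Mmp14* was found in 68.1% of control and 54.5% of telmisartan macrophages, and after thinning to 1000 UMIs in 18.2% (17.0 to 19.4) and 15.4% (14.3 to 16.6). *Mmp12* was found in 59.6% and 52.8% unthinned and in 33.1% (31.7 to 34.6) and 29.4% (28.0 to 30.9) thinned. *Mmp19* was found in 49.2% and 50.6% unthinned, and in 13.6% (12.5 to 14.7) and 19.3% (18.1 to 20.6) thinned. Thinning thus left *Mmp14* and *Mmp12* more often detected in the control pool and set *Mmp19* apart in the telmisartan pool. *Mmp13* went from 13.3% and 14.3% to 4.69% (4.06 to 5.39) and 6.32% (5.58 to 7.13), and *Timp1* from 15.3% and 8.89% to 2.77% (2.28 to 3.33) and 1.68% (1.30 to 2.13). For *Mmp8* and *Timp2* the thinned intervals overlapped, at 4.57% and 5.25% and at 6.19% and 5.81%, against 16.5% and 16.2% and 30.1% and 24.4% unthinned. Thinning left out 45 control and 71 telmisartan cells.

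The T-like cells, at a median of 3264.5 UMIs against 7561 in macrophages of both pools, served as the reference for detection. Where their UMIs of these genes came from was not tested. With both classes thinned to 500 UMIs, *Mmp12* was found in 2.15% of T-like (0.589 to 5.41) and 22.0% of macrophage-like cells (21.1 to 22.9). *Mmp14* was found in 0.538% of T-like (0.0136 to 2.96) and 8.73% of macrophage-like cells (8.12 to 9.36), and *Mmp19* in 1.61% (0.334 to 4.64) and 9.50% (8.86 to 10.2). For *Mmp13* the shares were 0.538% (0.0136 to 2.96) and 3.54% (3.15 to 3.97). The intervals of these 4 genes did not overlap. Those of the other 5 did: *Mmp8*, at 0.538% and 2.65%, *Timp1*, at 0.538% and 1.22%, *Mmp9*, at 0% (0 to 1.96) and 0.124% (0.0596 to 0.228), *Timp3*, at 0% and 0.0746%, and *Timp2*. In the telmisartan pool 2 *Mmp9* UMIs in 1 T-like cell gave 4.40 CPM (0.533 to 15.9), an interval that overlaps that of telmisartan macrophages. *Timp2* was found in 3.23% of T-like (1.19 to 6.89) and 3.14% of macrophage-like cells (2.77 to 3.55), so over the whole macrophage class its detection was not above that of T-like cells. Dendritic-like cells thinned alike lay below the macrophage intervals for both *Timp2*, at 0.902% (0.332 to 1.95), and *Mmp8*, at 0.451% (0.0931 to 1.31), and their *Timp2* level was 15.9 CPM in the control and 19.2 CPM in the telmisartan pool. The *Timp2* levels of subcluster 3, 259 and 248 CPM, lay above the T-like intervals.

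Other genes of the pathway were counted in macrophage-like cells from fixed lists. Of 17 other Mmp and Timp columns, 2 reached 100 UMIs: *Mmp27*, higher in the telmisartan pool by a log2 ratio of 1.05 (0.51 to 1.61), and *Mmp25*, an MMP anchored to the membrane, at -0.32 (-0.61 to -0.04). *Mmp25* was mainly a dendritic transcript, with 215 CPM (199 to 233) and 173 CPM (156 to 192) in dendritic-like and 7.41 and 5.93 CPM in macrophage-like cells. Dendritic-like cells formed 3 subclusters. In that led by *Fscn1*, of 103 cells, *Mmp25* stood at 956 and 987 CPM, a ratio of 0.05 (-0.20 to 0.29). In that led by *Sirpb1c*, of 474 cells, it stood at 138 and 81.5 CPM, a ratio of -0.75 (-1.08 to -0.44). In that led by *Top2a*, of 88 cells, the ratio of 0.69 had an interval that held 0. Of 21 activators, inhibitors and binding partners, 12 reached 100 UMIs. The largest ratio was that of *Serpinb2*, which encodes an inhibitor of plasminogen activators, at 10.6 and 23.2 CPM with a log2 ratio of 1.14 (0.96 to 1.32). *Cd44*, a hyaluronan receptor that holds MMPs at the cell surface, had a ratio of 0.45, *Thbs1* 0.29 and *Itgb1* -0.25.

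Among 20 ADAM and ADAMTS proteases, 8 reached 100 UMIs and 0 passed 1.5-fold in either direction. Their largest ratios were 0.43 for *Adamts6* and -0.40 for *Adam10*, a sheddase of membrane proteins. Of 18 matrix genes, 12 reached 100 UMIs, with 1 at least 1.5-fold lower (*Spp1*, osteopontin) and 5 at least 1.5-fold higher: *Col1a2* at 1.01 (0.59 to 1.44), *Col1a1* at 0.86 (0.47 to 1.24), *Bgn* at 0.78 (0.43 to 1.13), *Sparc* at 0.77 (0.52 to 1.03) and *Col3a1* at 0.64 (0.24 to 1.03). Of all 11074 genes, 2.23% were at least 1.5-fold lower and 4.76% at least 1.5-fold higher. The collagen genes are fibroblast markers as well. All 8 listed fibroblast markers were detected in macrophage-like cells and summed to 12.1 CPM in the control and 18.5 CPM in the telmisartan pool, of which the 3 collagen genes gave 284 of 460 and 374 of 523 UMIs. The other 5 markers summed to 4.61 and 5.26 CPM, a log2 ratio of 0.19 (-0.14 to 0.51). *Thy1*, also 4-fold above the other cells in both T-like clusters, gave 142 of their 176 control and 112 of their 149 telmisartan UMIs. The rest were 14 and 21 UMIs of *Dcn*, 12 and 7 of *Pdgfrb*, 5 and 6 of *Lum* and 3 and 3 of *Pdgfra*. The ratio of 0.19 thus mostly describes *Thy1*. The part of fibroblast RNA in the matrix ratios was not tested.

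For the 7 genes with at least 500 UMIs in kept cells, which leaves out *Mmp9* and *Timp3*, the genes whose level followed theirs most closely were taken by Pearson r of log2(CPM + 10) over 26 points, the subclusters and classes of both pools with at least 20 cells, among 8642 genes. The points share 1 capture and differ in depth, and r is a description. *Mmp8* was closest to *Ftl1-ps1*, at 0.93, then to *Rbms1* and the chemokine gene *Cxcl3*, both at 0.92, and *Mmp12* to *Plxna1*, at 0.92, and the galectin gene *Lgals3*, at 0.90. *Mmp13* was closest to *Flrt2*, at 0.90, and *Mmp14* to *Acp2*, at 0.91, with the MMP-clearing receptor *Lrp1* at 0.90. *Mmp19* was closest to *Furin*, a convertase that activates several proenzymes, at 0.92. For *Timp1* it was *AA467197*, at 0.90, and for *Timp2* it was *Sec14l1*, at 0.83. Between the 7 genes themselves r ran from 0.73 for *Mmp8* with *Mmp13* down to -0.38 for *Timp1* with *Timp2*.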

How the data were processed

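The authors deposited raw UMI counts per gene and putative cell from the BD Rhapsody WTA Analysis Pipeline 1.11 on GRCm38, and counts of Sample Tag reads. Both list 20726 cells, and neither was normalized. A cell belonged to the tag with at least 75% of at least 10 tag reads and was kept with 150 to 5000 genes if mitochondrial UMIs made up no more than 20%. Scrublet (scanpy 1.11.5, Python 3.11.15) marked no cell at its automatic threshold, so the 942 cells with the highest scores were removed, 9.51% of cells, the share predicted from 8.67% of tag multiplets.

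Cells were clustered in Seurat 5.3.0 (R 4.3.3) with 2000 variable genes less all Mmp and Timp genes, 30 components, 20 neighbors and a resolution of 0.5, and macrophage-like cells again at 0.45. A cluster took the name of a class if 3 or more of its markers exceeded the other cells 4-fold, each with 10 or more UMIs and found in 10% or more of the cluster. The remaining clusters were called macrophage-like; detection of macrophage markers, found in every cluster, did not set them apart. Of each pathway list, the 5 largest log2 ratios among genes with at least 100 UMIs were named, as were the 5 genes most like each MMP or TIMP with at least 500 UMIs, of which some are printed; 1 listed gene is not reported here. Gene positions are from GENCODE M21 on GRCm38.

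Each group is 1 pool, so no test was made between groups. Alternatives varied the tag share, the cell filters, doublet removal, resolution, the clustering genes, scaling (TMM factors from edgeR 4.0.16 among them), thinning, the fold and the UMI minimum. The ratio step was checked on simulated counts. The genes and lists were chosen with earlier results of these data known. Tumor growth and immunohistochemistry were not analysed here.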

Additional observations from a re-analysis of the deposited data

Results flagged for a closer look

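Some cells outside the comparison held more of a gene than the 4535 kept control cells, with intervals that did not overlap. Among tagged control cells removed as doublets, *Mmp9* stood at 9.84 CPM (7.56 to 12.6) against 6.20 CPM in kept control cells, *Mmp13* at 90.3 against 69.8 CPM, and *Mmp19* at 189 against 171 CPM. Telmisartan doublets went the other way, with *Mmp13* at 94.5 CPM (85.3 to 104) and *Mmp19* at 220 CPM (206 to 235). Kept telmisartan cells had 117 CPM (114 to 121) and 251 CPM (245 to 256). *Mmp9* in telmisartan doublets, at 1.23 CPM (0.401 to 2.88), overlapped the kept telmisartan cells, at 1.52 CPM (1.12 to 2.02). In 1580 cells split between both tags, *Mmp19* stood at 188 CPM (179 to 197), between the kept control cells and the kept telmisartan cells, at 251 CPM. *Timp3*, a gene with 48 UMIs in all kept cells, stood at 5.74 CPM (4.06 to 7.87) in tagged control cells outside the gene and mitochondrial limits and at 6.85 CPM (5.28 to 8.75) in the split cells, against 0.553 CPM (0.351 to 0.830) in kept control cells. Telmisartan cells outside the limits had 5.25 CPM of *Timp3* (3.73 to 7.18). The reason was not tested.

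In macrophage subclusters, the log2 ratio of telmisartan over control had intervals on both sides of 0 for 4 genes. The ranges given here cover only subclusters whose interval left out 0. *Mmp8* ran from -0.43 in subcluster 1 to 0.72 in subcluster 6. *Mmp12* ran from -1.23 in subcluster 1 to 0.57 in subcluster 3. *Mmp13* ran from -0.55 in subcluster 2 to 0.82 in subcluster 3. *Timp2* ran from -0.34 in subcluster 1 to 0.97 in subcluster 8, where it rested on 14 and 30 UMIs. The differences between subclusters were not tested.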

How the results depend on the processing

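The log2 ratio in macrophage-like cells kept its sign over 17 alternatives for *Mmp9* (-4.36 to -1.42), and over 18 for *Mmp13* (0.33 to 1.04), *Mmp14* (-0.78 to -0.27), *Mmp19* (0.14 to 0.64) and *Timp1* (-1.06 to -0.41). These counts include the limit of 10 UMIs of the gene, from which no direction is read. That limit gives the -1.42 of *Mmp9*, whose range otherwise ended at -2.03, and no end of the other ranges. Of 18 alternatives, *Mmp8* was below 0 in 1, *Timp2* in 8 and *Mmp12* in 17. *Mmp12*, -0.17 as reported, was 0.23 (0.17 to 0.29) without cells of 10 or more UMIs of the gene, which left out 1001 control and 696 telmisartan cells, and ran from -0.58 to -0.12 in the others. The ratio of *Mmp9*, -3.37 as reported, was -2.15 with all cell filters off and all classes together, -2.03 as a mean of ln(1 + UMIs per 10000), -4.36 in cells thinned to 1000 UMIs, which rests on 21 and 1 UMIs, and -1.42 without cells of 10 or more *Mmp9* UMIs. Without the 1% of cells with most UMIs of the gene, *Mmp9* and *Timp3* had no UMIs left and no value, and both *Mmp13* at 0.80 and *Mmp19* at 0.64 passed 1.5-fold. Of the 2 genes at least 1.5-fold lower, 1 was left with subclusters given the same weight, with a 2-fold limit, without cells of 10 or more UMIs of the gene (*Timp1* at -0.56), and with at least 500 UMIs, a minimum that *Mmp9* does not reach. Without scaling there were 3. The 1 gene at least 1.5-fold higher became 2 with a tag share of 90% (*Mmp19* at 0.61) and without cells of 10 or more UMIs of the gene (*Mmp19* at 0.59), and 0 as a mean of UMIs per 10000 of each cell, as a mean of ln(1 + UMIs per 10000), without scaling, in cells thinned to 1000 UMIs, with subclusters given the same weight, and with a 2-fold limit. The cause was not tested. Without scaling the median of all genes moved from -0.05 to -0.45, and relative to that shift 2 genes were at least 1.5-fold lower and 2 higher (*Mmp13* at 0.81 and *Mmp19* at 0.60), values that the reported ratios, TMM factors and totals without mitochondrial and ribosomal protein genes also give relative to their own medians. With ln the median was -0.17, and relative to it 2 were lower and 0 higher. As a mean of UMIs per 10000 it was -0.06, with 2 lower and 1 higher (*Mmp13* at 0.60), and in thinned cells -0.04, with 2 lower and 1 higher (*Mmp19* at 0.62). Of 72 shares of cells, 49 left their unthinned interval on thinning. The subcluster weights and the limit of 10 UMIs, and leaving out the macrophage-like cluster of lowest depth, which moved neither count, were chosen after the data had been seen. The limit of 10 acts on the measured gene's own UMIs in pools of unequal depth, so no direction, lost call or gained call is read from it. No paired analysis was possible because each group is 1 pool.

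Depth limits the smaller classes. Neutrophil-like cells number 48 and 24, and T-like cells 72 and 114, so a ratio there can be large by counting alone. The pools were captured together, but mice within a pool cannot be told apart.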

Other observations

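*Mmp10*, a stromelysin, was not among the 9 genes. In macrophage-like cells it had 15 UMIs in 11 control cells and 43 UMIs in 19 telmisartan cells, of which 37 UMIs in 14 cells lay in subcluster 3. It did not reach the minimum of 100 UMIs. *Mmp2*, the other gelatinase, had 31 and 41 UMIs in macrophage-like cells and 0 and 1 in dendritic-like cells.

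*Mmp25* was detected in 44.5% of control (39.3 to 49.8) and 31.9% of telmisartan dendritic-like cells (26.7 to 37.5), unthinned, and in 4.91% and 3.33% of macrophage-like cells. T-like cells had 1 and 0 UMIs. *Mmp14* in T-like cells stood at 77.7 CPM in the control pool and 13.2 CPM in the telmisartan pool, from 34 UMIs in 13 cells and 6 UMIs in 6 cells. The 11 macrophage markers summed there to 6111 and 4053 CPM. The T-like cells were 2 clusters, and in cluster 12, with 22 of the 72 control and 22 of the 114 telmisartan cells, *Mmp14* stood at 145 and 16.7 CPM. The part of either in the difference was not tested.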
